A study of Mus musculus with 17 samples.

Results

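Glycolysis and hypoxia response genes were examined in cells washed from the lungs of mice by bronchoalveolar lavage. The set holds 31 genes: 18 glycolytic enzymes, 4 glucose and lactate transporters and 9 other targets of the hypoxia response. Their measurements are all probe sets of the Affymetrix Mouse430_2 array annotated to exactly 1 of these genes, which gave 67 of the 45101 probe sets and 29 of the 31 genes. Gpi1 and Eno1 are not analysed here. Of the 67 probe sets, 61 passed a filter on low signal, leaving 28 genes to be tested among 13391 in all. Vegfa did not pass: its 2 probe sets exceeded the filter on 0 and 1 of the 6 control arrays and on 0 and 4 of the 11 urethane arrays.

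The lavage cells came from A/J mice, an inbred strain that readily develops lung tumours. Controls were untreated mice matched for age (6 arrays). The other group (11 arrays) had received urethane, the chemical carcinogen commonly used to start lung adenomas in these mice. The labels give no dose, time since treatment, age or sex, and do not say whether each number is a separate mouse, so p-values measure only the spread among these samples and some of that spread could be technical. Arrays are named by group and by the number in the title, and control 6_13 carries 2 numbers. One descriptive field of the labels calls the source lung tissue, whereas the title and source call it lavage cells. Defining genes of alveolar macrophages were bright on every array, with Marco between 12.57 and 13.71 and Siglecf between 12.70 and 13.83 on the log2 scale.

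Glycolysis splits glucose into pyruvate, and lactate dehydrogenase turns pyruvate into lactate, which leaves the cell through monocarboxylate transporters. When oxygen is scarce, the hypoxia-inducible factors escape destruction by prolyl hydroxylases and switch on most genes of this route together with genes for vessel growth, mitochondrial removal and oxygen sensing. Macrophages also raise glycolysis when inflammatory signals activate them, and resting alveolar macrophages are described as relying on it little.

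The factors bind a short core, ACGTG or GCGTG, in promoters and enhancers of their targets. RefSeq promoter windows of 300 bases (250 before and 50 after the annotated start) were found for 28 of the 31 members, 40 windows in all. No window was found for Ndrg1, and Gpi1 and Eno1 were not looked up. The windows were searched for both forms of the core on both strands. A palindromic CACGTG counts as a match on each strand. Some windows of the same gene overlap, as in Aldoa and Pfkm, so the same site can count in more than a single window. The core was present in 33 of the 40 member windows (82.5%) and in 14380 of all 32851 promoter windows (43.8%), with no matching for base composition. By role, 21 of 26 windows of glycolytic enzymes, 4 of 4 of transporters and 8 of 10 of other targets held it. Of the 28 genes, 27 had it in at least 1 window, and Tpi1 had it in none of its own. A window each of 2 genes that rose after urethane (Hk2, Aldoc) and of 2 classical targets whose signals did not pass the test (Pgk1, Ldha) is given below, the one with more matches where a gene has 2 (Aldoc, Ldha), from 5′ to 3′, with capitals marking the core or its reverse complement.
Hk2, GRCm38.p6 chr6:82774405-82774704, minus strand: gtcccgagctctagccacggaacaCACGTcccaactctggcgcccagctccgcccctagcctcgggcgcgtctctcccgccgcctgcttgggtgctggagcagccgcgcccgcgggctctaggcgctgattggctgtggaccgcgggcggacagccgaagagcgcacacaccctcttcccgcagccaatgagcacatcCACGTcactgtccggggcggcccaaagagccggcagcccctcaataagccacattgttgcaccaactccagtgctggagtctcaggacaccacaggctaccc
Aldoc, GRCm38.p6 chr11:78322823-78323122, plus strand: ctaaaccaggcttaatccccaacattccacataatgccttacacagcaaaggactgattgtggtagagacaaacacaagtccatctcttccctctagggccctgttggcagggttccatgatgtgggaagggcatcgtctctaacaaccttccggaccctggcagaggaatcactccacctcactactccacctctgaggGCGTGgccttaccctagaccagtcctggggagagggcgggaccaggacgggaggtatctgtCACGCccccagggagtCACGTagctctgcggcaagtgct
Pgk1, GRCm38.p6 chrX:106186850-106187149, plus strand: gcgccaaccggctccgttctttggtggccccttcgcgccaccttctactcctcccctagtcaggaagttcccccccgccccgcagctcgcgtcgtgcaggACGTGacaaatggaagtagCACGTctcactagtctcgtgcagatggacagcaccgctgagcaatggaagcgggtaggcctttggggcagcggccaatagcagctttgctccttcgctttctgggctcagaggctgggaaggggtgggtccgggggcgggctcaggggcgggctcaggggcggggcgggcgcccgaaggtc
Ldha, GRCm38.p6 chr7:46845554-46845853, plus strand: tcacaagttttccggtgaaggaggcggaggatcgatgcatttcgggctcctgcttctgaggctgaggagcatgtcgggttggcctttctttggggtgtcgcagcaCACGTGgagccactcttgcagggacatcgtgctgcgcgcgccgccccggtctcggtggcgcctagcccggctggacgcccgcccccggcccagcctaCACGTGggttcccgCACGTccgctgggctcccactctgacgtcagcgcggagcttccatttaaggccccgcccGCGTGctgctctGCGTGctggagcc
The Ldha window shown held 7 matches and its other window 2, the Aldoc window shown 3 and its other window 1, and Hk2 and Pgk1 2 each. A match is a description of these letters, and the count of matches did not order the 4 genes by their difference between groups.

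The month of the scan date split the arrays into 2 sets, called scan days here, each with a chip lot and a range of numbers of its own. Whether all arrays of a set were scanned on the same day was not checked. The first day held 2 controls and 5 urethane arrays, the second 4 controls and 6 urethane arrays. Fluidics station was uneven between the groups. Of the controls only control 33 ran on station 1, and of the urethane arrays only urethane 9, 35 and 36 ran on station 2. Station and urethane are thus partly confounded in every comparison of the groups. Every array had a trimmed mean signal of 500, while the 20th percentile signal ranged from 9.49 to 66.2 and was highest on urethane 33, 36 and 35. Control 36 was the highest control for 9 of the 28 members and control 37 the lowest for 11. Urethane 33 was the lowest urethane array for 8 and the highest for 4. Members that passed with or without scan day as a block, and the other genes named as passing, are therefore given with and without control 36 and urethane 33. The log2 ratio of 3′ to 5′ signal, a measure of RNA integrity, differed between urethane and control by -0.026 for Gapdh (exact permutation p = 0.763) and by 0.061 for Actb (exact permutation p = 0.0353, adjusted over both 0.0706).

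The comparison of urethane with control arrays asks whether the cells of treated mice carried more or less RNA of these genes. Hk2 and Aldoc rose and Ndrg1 fell, whereas the remaining 25 tested members did not pass an adjusted p of 0.05 in limma. Over all genes tested 3.14% passed, 2% higher and 1.14% lower. The median log2 difference of the 28 members was 0.05, and that of all genes was -0.03. The intervals of 10 of the 28 members (35.7%) excluded 0, an unadjusted p under 0.05, as did those of 14.7% of all genes. The members were chosen with earlier results of these data known, so these shares are no test of the set. The groups overlapped for each of the 28 members, and 0.47% of all genes had groups that did not overlap. In a fit blocked by scan day 7 members passed, 5 higher (Hk2, Aldoc, Ldhb, Slc2a1 and Slc16a1) and 2 lower (Slc2a6 and Ndrg1), against 7.75% of all genes, 4.31% higher and 3.44% lower. In bulk cells, fewer cells of a type and less RNA per cell cannot be told apart.

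Markers of other cell types also differed between the groups, where 2% of all genes tested were higher and 1.14% lower. Of 17 airway epithelium markers tested 7 were lower, with a summed signal of 40187 to 62078 on control arrays and 19184 to 32415 on urethane arrays, which did not overlap. Of 13 neutrophil markers 2 were higher, with a summed signal of 10597 to 32116 on control arrays and 18288 to 90774 on urethane arrays. Of 12 T cell markers 3 were higher, while their summed signal was 9246 to 15575 on control arrays (median 12858) and 9568 to 13101 on urethane arrays (median 11974). Alveolar macrophage markers, 2 higher and 2 lower of 16, summed to 254397 to 306984 on control arrays and 207090 to 306460 on urethane arrays. Of 12 alveolar epithelium markers and of 7 monocyte and interstitial macrophage markers 1 each was lower, and 0 of 6 B cell and 0 of 3 erythroid markers passed in limma (1 and 0 at an unadjusted p under 0.05). Their summed signals on control and urethane arrays overlapped: alveolar epithelium 10106 to 17226 and 9855 to 15443, monocyte and interstitial macrophage 6408 to 26029 and 8072 to 13206, B cell 159 to 816 and 260.1 to 2187, and erythroid 363 to 3767 and 27.3 to 5443. The part of these cells in the rise of Hk2 and Aldoc and in the fall of Ndrg1 was not tested.

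**Figure D1:**
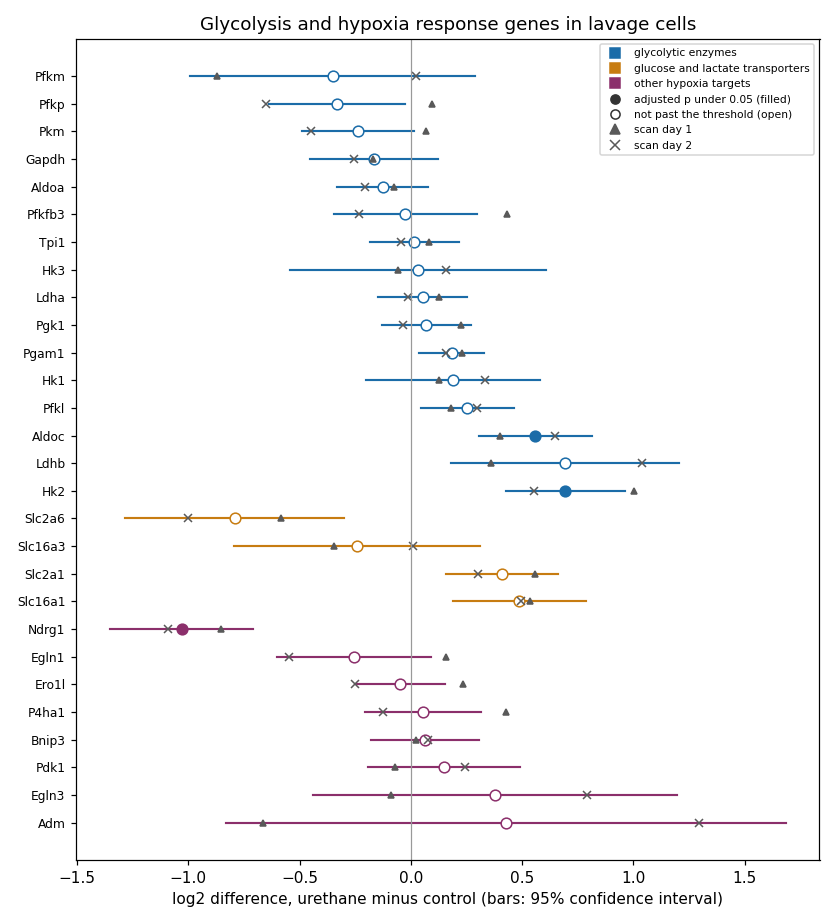
Log2 difference, urethane minus control, of the 28 tested genes (circles, filled where the adjusted p was under 0.05) with its 95% confidence interval (bars), and the difference on each scan day (triangles for day 1, crosses for day 2). Hk2 (0.69) and Aldoc (0.56) lie to the right and Ndrg1 (-1.03) to the left, while most intervals include 0.

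Hk2 encodes hexokinase 2, the inducible enzyme that traps glucose in the cell as glucose 6-phosphate. Its log2 signal was between 9.40 and 10.57 on control arrays, with a median of 9.82, and between 10.33 and 10.80 on urethane arrays, with a median of 10.54. Each urethane array exceeded the mean of the controls, and the groups overlapped through control 36, whose 10.57 was within the urethane range. The log2 difference was 0.69 (SE 0.13, limma adjusted p = 0.0035), a 1.62-fold rise. The 2 days gave 1.004 and 0.56, and blocking by scan day gave an adjusted p of 3.3e-04. Without control 36 the difference was 0.83, and without urethane 33 it was 0.70. The array carries 1 probe set for this gene.

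Aldoc encodes aldolase C, an isoform of the enzyme that cleaves fructose 1,6-bisphosphate. Control arrays lay between 11.04 and 11.77 with a median of 11.33, and urethane arrays between 11.67 and 12.52 with a median of 11.82. Of the urethane arrays, 8 exceeded every control. Urethane minus control was 0.56 (SE 0.12, limma adjusted p = 0.0121), a 1.47-fold rise, and the 2 days gave 0.40 and 0.65. It was 0.64 without control 36 and 0.58 without urethane 33. On scan day 1 alone the adjusted p was 0.0526, which misses the threshold. A second probe set differed by 0.44 and did not pass.

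Ldhb encodes the heart subunit of lactate dehydrogenase, which favours the conversion of lactate to pyruvate. The signal was 7.73 to 8.91 on control arrays (median 8.55) and 8.18 to 10.07 on urethane arrays (median 9.20). All 6 urethane arrays of scan day 2 exceeded every control, while those of scan day 1 lay within the control range. The groups differed by 0.69 (SE 0.25, limma adjusted p = 0.152), and by 0.78 (adjusted p = 0.0095) in the fit blocked by scan day. The 2 days gave 0.36 and 1.04, and the interaction of group with scan day did not pass (adjusted p = 0.323). All 4 probe sets gave positive differences, from 0.67 to 1.60. One of them passed in the unblocked fit, where 1.96% of all probe sets did, but it exceeded the filter on 3 of 6 control arrays and on all 11 urethane arrays, so that it was kept through the group where it was high. In the blocked fit, which called 5.87% of all probe sets, 3 of the 4 passed, and the other 2 of these exceeded the filter on every array. The gene did not pass without control 36 (0.80, adjusted p = 0.0909) or without urethane 33 (0.63, adjusted p = 0.191).

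The rest of the enzyme chain showed no member past the threshold in this comparison. Hk1 and Hk3, the other hexokinases, differed by 0.19 and 0.03. A second Hk3 probe set differed by 1.10, passed only in the blocked fit, and exceeded the filter on 3 of 6 control arrays. The phosphofructokinases, which catalyse the committed step, differed by 0.25 (Pfkl, liver type), -0.35 (Pfkm, muscle type) and -0.33 (Pfkp, platelet type). Pfkfb3, which makes the activator fructose 2,6-bisphosphate, differed by -0.03. Aldoa, the main aldolase of most tissues, differed by -0.13, and its 5 probe sets ranged from -0.13 to 0.02.

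The enzymes of the later steps did not pass either. Tpi1 (triosephosphate isomerase) differed by 0.02 (95% interval -0.18 to 0.21), Pgk1 (phosphoglycerate kinase) by 0.07 (-0.13 to 0.27) and Ldha (the muscle subunit of lactate dehydrogenase) by 0.05 (-0.15 to 0.25). Pgam1, phosphoglycerate mutase, differed by 0.18 (95% interval 0.04 to 0.33, adjusted p = 0.192) and had the lowest spread within groups of any member, an SD of 0.097. Gapdh, often used as a reference gene, differed by -0.17 (-0.45 to 0.12) and was measured with the 3 control probe sets of the array, which ranged from -0.19 to -0.14. Pkm, the pyruvate kinase of most tissues, differed by -0.24 (-0.49 to 0.02, adjusted p = 0.383). Fluidics station, which was uneven between the groups, was added as a block beside scan day, a setting chosen after the data were seen. Pkm then differed by -0.44 (limma adjusted p = 0.0254) and Pfkp by -0.54 (adjusted p = 0.0144). Slc2a1 and Slc16a1, which passed with scan day as the only block, did not pass (adjusted p = 0.145 and 0.0749).

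**Figure D2:**
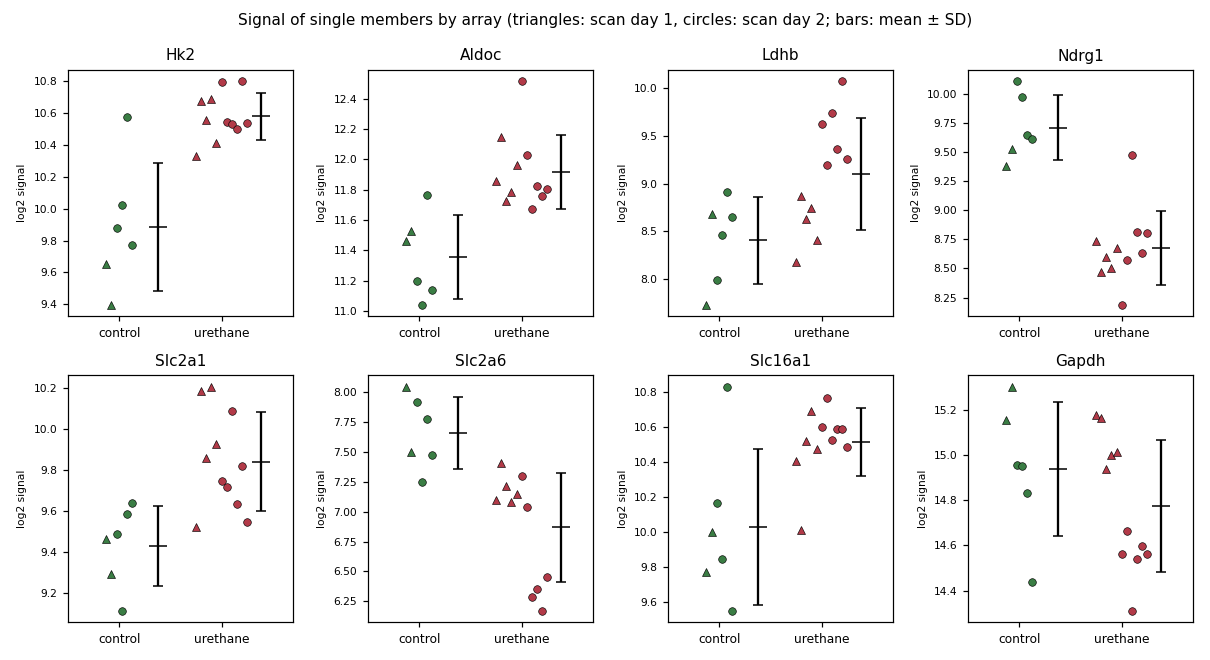
Log2 signal of 8 members on each array, control on the left and urethane on the right (triangles for scan day 1, circles for scan day 2, bars for the mean and SD of the group). Hk2 and Aldoc are higher after urethane on both days, Ndrg1 lies below every control on 10 of the 11 urethane arrays, and Gapdh is lower on scan day 2 in both groups.

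The 4 transporters had differences of both signs with no member past the threshold. In the blocked fit 2 were higher and 1 lower, where 4.31% of all genes were higher and 3.44% lower. Slc2a1, the basal glucose transporter of most cells, was at 9.12 to 9.64 on control arrays (median 9.48) and 9.52 to 10.20 on urethane arrays (median 9.82). Each urethane array exceeded the mean of the controls and 8 exceeded every control. The difference of 0.41 (SE 0.12) had a limma adjusted p of 0.0711, and that of 0.40 in the blocked fit an adjusted p of 0.0404. Of its 3 probe sets, which ranged from 0.20 to 0.47, none passed in either fit over probe sets (0 of 3). The gene differed by 0.44 (adjusted p = 0.0558) without control 36 and by 0.38 (adjusted p = 0.0975) without urethane 33, and it passed without urethane 3 (adjusted p = 0.042).

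Slc2a6, a hexose transporter found on lysosomes of macrophages, lay the other way. It was at 7.25 to 8.05 on control arrays (median 7.64) and 6.17 to 7.41 on urethane arrays (median 7.08). Each urethane array was under the mean of the controls and 9 were under every control. Its 1 probe set exceeded the filter on all 6 control arrays and on 8 of the 11 urethane arrays, so its lowest urethane values were dim. The difference of -0.79 (SE 0.24) had a limma adjusted p of 0.0776, and that of -0.85 in the blocked fit an adjusted p of 0.0173. The lowest values were those of urethane 33, 34, 35 and 36, between 6.17 and 6.46. Without control 36 it was -0.77 (adjusted p = 0.107) and without urethane 33 -0.73 (adjusted p = 0.0882).

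Slc16a1 encodes a monocarboxylate transporter that carries lactate in either direction. It was at 9.55 to 10.83 on control arrays (median 9.92) and 10.01 to 10.77 on urethane arrays (median 10.53), and control 36 was the highest of all 17 arrays. The groups differed by 0.49 (SE 0.14, limma adjusted p = 0.0698), and the 2 days gave 0.53 and 0.49. Blocking by scan day gave an adjusted p of 0.0223, and without control 36 the difference was 0.65 (adjusted p = 0.0017). It was 0.49 (adjusted p = 0.0866) without urethane 33 and 0.54 (adjusted p = 0.0385) without urethane 5. Slc16a3, the lactate exporter of glycolytic cells, differed by -0.24 (SE 0.27).

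Of the other hypoxia targets, Ndrg1 fell and the remaining 7 that were tested did not pass. Ndrg1 encodes a cytoplasmic protein induced by hypoxia and linked to differentiation. Control arrays lay between 9.38 and 10.11 (median 9.63) and urethane arrays between 8.19 and 9.47 (median 8.63). Of the 11 urethane arrays 10 lay below every control, and urethane 33, at 9.47, lay between the lowest and highest control. The log2 difference was -1.03 (SE 0.16, limma adjusted p = 5.4e-04), a 2.04-fold fall, and the 2 days gave -0.85 and -1.09. Without control 36 it was -1.04 and without urethane 33 it was -1.11. All 5 probe sets were lower after urethane, from -1.13 to -0.66, and 2 of them passed.

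Adm and Egln3 had the next largest differences of this group, and both were dim. Each exceeded the filter on 1 control and 5 urethane arrays, the minimum of 6. Both were thus kept mainly through the group where they were higher, and their differences are no support for a rise. Adm encodes the vasodilator peptide adrenomedullin. It was at 5.27 to 7.02 on control arrays (median 5.77) and 4.90 to 10.27 on urethane arrays (median 5.91). The highest value was that of urethane 33, and the log2 difference of 0.43 (SE 0.61) became 0.04 without it. Its within-group SD of 1.34 was the largest of the 28 members. Egln3, an oxygen-sensing prolyl hydroxylase that is itself a target, was at 5.27 to 6.39 on control arrays (median 5.57) and 4.36 to 7.05 on urethane arrays (median 6.06). Its groups overlapped, and the log2 difference was 0.38 (SE 0.39, limma adjusted p = 0.738).

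The remaining targets differed by -0.26 to 0.15. Pdk1, the kinase that closes pyruvate's entry to the mitochondria, differed by 0.15, and Bnip3, a receptor for removal of mitochondria, by 0.06 (95% interval -0.18 to 0.30). Egln1, the main oxygen sensor of the pathway, differed by -0.26. Ero1l, an oxidase of the endoplasmic reticulum, and P4ha1, a subunit of collagen prolyl hydroxylase, differed by -0.05 and 0.05. For Adm, Egln3, Pdk1, Egln1, P4ha1 and Ero1l the sign of the difference was not the same on both scan days.

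Glycolytic enzymes and the other hypoxia targets were set side by side as 2 groups, with no test of the lists. Among the 16 enzymes tested, 2 were higher and 0 lower, with a median log2 difference of 0.04 and a range from -0.35 to 0.69. Among the 8 other targets, 0 were higher and 1 lower, with a median of 0.06 and a range from -1.03 to 0.43. This median includes Adm and Egln3, which were kept mainly through urethane arrays. The 4 transporters had a median of 0.08. Of all genes tested, 2% were higher and 1.14% lower, and their median was -0.03.

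On each array, the mean of the enzymes relative to their 17-array means ran from -0.16 to 0.11 in controls and from -0.12 to 0.23 after urethane. For the other targets it ran from -0.06 to 0.11 in controls and from -0.36 to 0.46 after urethane, with the lowest value on urethane 5 and the highest on urethane 33. These extremes rest on the dim genes Adm and Egln3. Leaving out both was a choice made after the data were seen. The mean of the remaining 6 targets was then 0.01 on urethane 5 and -0.08 on urethane 33. It ran from 0.00 to 0.33 in controls and from -0.21 to 0.05 after urethane. Of these 6, Ndrg1 differed between groups by -1.03 and the others by -0.26 to 0.15, so the shift of this mean came mostly from Ndrg1. On control 36, 12 of the 16 enzymes were above their own mean, against 3 to 9 on the other controls. On urethane arrays the count ran from 6 to 13.

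**Figure D3:**
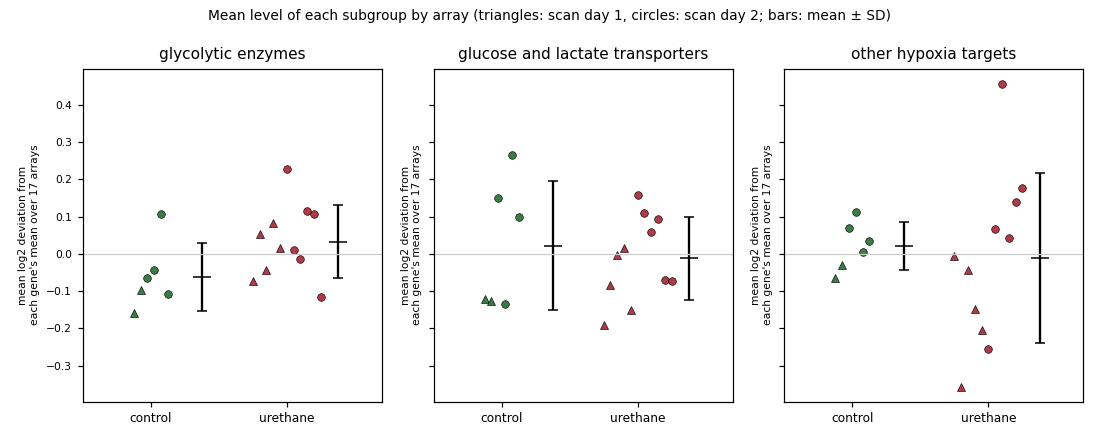
Mean log2 deviation from each gene's own mean over 17 arrays, for the enzymes (16 genes), transporters (4) and other hypoxia targets (8), by array and group (triangles for scan day 1, circles for scan day 2, bars for the mean and SD). The groups overlap in all 3 panels, and the widest spread, that of the other hypoxia targets after urethane (SD 0.23), is 0.078 without Adm and Egln3.

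The scan days were compared member by member. Of the 28 members, 13 (46.4%) differed in the same direction on both days, and over all genes 48.8% did. The share was 8 of 16 for the enzymes, 3 of 4 for the transporters and 2 of 8 for the other targets. Median differences on scan days 1 and 2 were 0.13 and 0.00 for the enzymes, 0.10 and 0.16 for the transporters, and -0.02 and -0.02 for the other targets. Hk2 and Ndrg1 passed on each day alone, where 7.27% of all genes passed on the first and 4.75% on the second. Pfkp differed by 0.10 on the first day and -0.65 on the second, where it passed (adjusted p = 0.0127). No member had an interaction of group and scan day past the threshold, which 0.0821% of all genes had, and the lowest adjusted p among members was 0.114 for Pfkp. In this test Pfkp passed without control 37 (adjusted p = 0.0077) and with array weights (adjusted p = 0.0328). In those 2 settings 663 and 323 of all genes passed, against 11 in the main fit. Differences within scan day 1 rest on 2 control arrays.

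**Figure D4:**
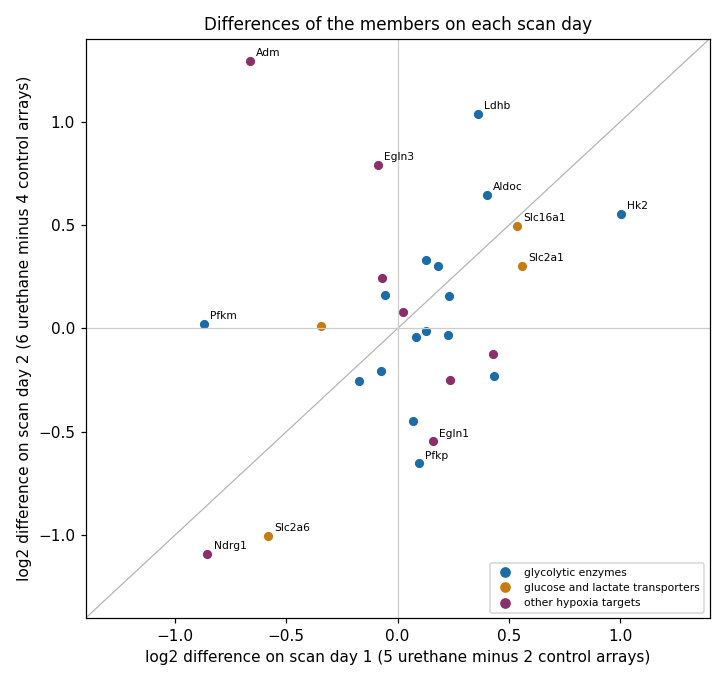
Log2 difference, urethane minus control, of the 28 members on scan day 1 (5 against 2 arrays, horizontal axis) and scan day 2 (6 against 4 arrays, vertical axis), with the line of equality. Hk2, Aldoc, Ldhb, Slc16a1 and Slc2a1 are positive on both days, Ndrg1 and Slc2a6 are negative on both, and Adm changes sign.

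Several members are isoforms of 1 enzyme or transporter, and taking their difference within an array removes any shift of that array's log2 signals. A scaling of the signals before the log does not cancel fully in dim genes such as Slc2a6 and Egln3, since 17.1 was added first. The 11 pairs within families were compared between groups by an exact two-sided permutation test over all 12376 splits, with Benjamini-Hochberg adjustment over the 11. These pairs were formed after values had been seen. Slc2a1 minus Slc2a6 was 1.77 ± 0.26 (SD, n = 6) on control arrays and 2.97 ± 0.46 (SD, n = 11) on urethane arrays. Each urethane array exceeded every control. The difference of 1.20 had an exact adjusted p of 8.9e-04, the 2 days gave 1.14 and 1.30, and it was 1.21 without control 36 and 1.12 without urethane 33.

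Aldoc minus Aldoa was -2.73 ± 0.30 (SD, n = 6) on control arrays and -2.04 ± 0.23 (SD, n = 11) on urethane arrays, a shift of 0.69 towards Aldoc (exact adjusted p = 0.0018), which was 0.79 without control 36 and 0.67 without urethane 33. Pfkl minus Pfkp shifted by 0.58 (exact adjusted p = 0.0341), with 0.09 and 0.95 on the 2 days. Hk2 minus Hk1 shifted by 0.50 (exact adjusted p = 0.0396), with 0.88 and 0.22 on the 2 days. The first 2 of these 4 pairs passed under all 25 alternatives. Pfkl minus Pfkp passed under 18 of them and Hk2 minus Hk1 under 13.

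Ldhb minus Ldha shifted by 0.64 (exact adjusted p = 0.108), and by 0.75 when permuted within scan days (exact adjusted p = 0.0243). Slc16a1 minus Slc16a3 shifted by 0.73 and Hk2 minus Hk3 by 0.66, each with an exact adjusted p of 0.0781. Both passed without control 36 (exact adjusted p = 0.0445) and neither passed without urethane 33 (exact adjusted p = 0.0623). Over the 25 alternatives the first passed in 2 and the second in 3. The other 4 pairs were Pfkl minus Pfkm (0.60), Egln3 minus Egln1 (0.63), Hk1 minus Hk3 (0.16) and Pfkm minus Pfkp (-0.02), with adjusted p-values from 0.112 to 0.964. A shift shows unequal change of the 2 isoforms and not which of them moved.

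**Figure D5:**
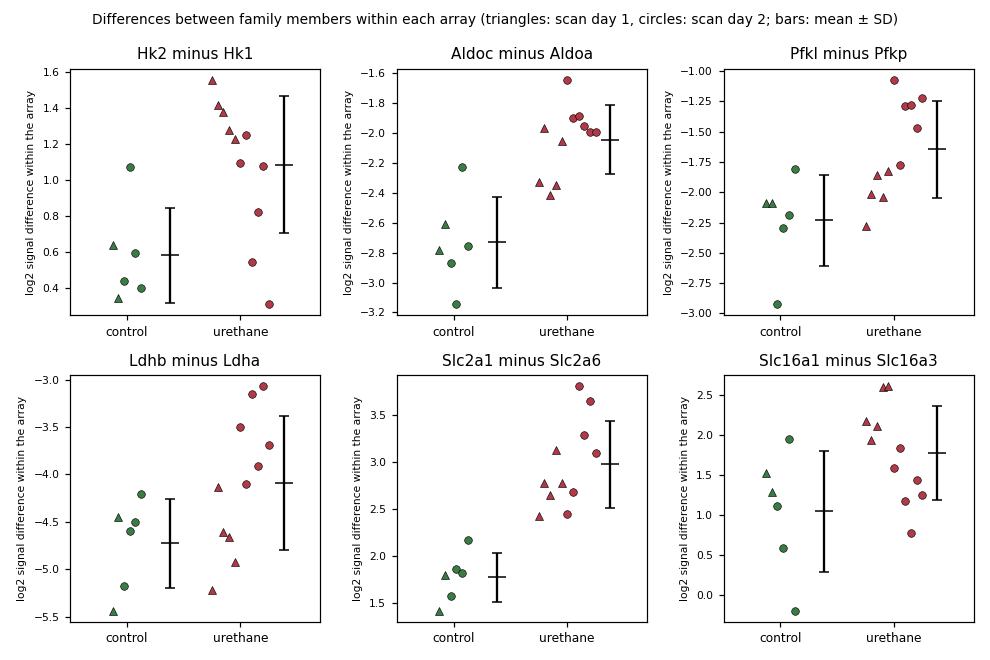
Difference in log2 signal between 2 isoforms within each array, by group (triangles for scan day 1, circles for scan day 2, bars for the mean and SD). For Slc2a1 minus Slc2a6 all urethane arrays lie above all control arrays, and for the other 5 pairs the groups overlap.

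The regulators upstream of these genes were examined with 10 genes listed for the hypoxia-inducible factors, of which 1 was higher and 2 lower, where 2% of all genes were higher and 1.14% lower. Epas1, which encodes the factor subunit known as HIF-2 alpha, was at 10.05 to 12.19 on control arrays (median 10.82) and 11.43 to 13.24 on urethane arrays (median 12.59). No urethane array was under the mean of the controls, and control 36 was the highest control. The log2 difference was 1.45 (SE 0.27, limma adjusted p = 0.0035), and the 2 days gave 1.71 and 1.49. It passed in all 32 alternatives, with 1.71 when control 36 was left out and 1.43 when urethane 33 was. Hif1a, the other main subunit, differed by 0.16 (SE 0.17) and Arnt, their shared partner, by 0.16 (SE 0.21).

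Cited2, which competes with the factors for their coactivators, was at 11.38 to 11.71 on control arrays (median 11.54) and 10.70 to 11.42 on urethane arrays (median 11.10). It fell by 0.50 (SE 0.10, limma adjusted p = 0.0064), and 10 of 11 urethane arrays lay below every control. Leaving out control 36 gave -0.51 and leaving out urethane 33 gave -0.48, both past the threshold, and the call was lost when arrays were centred on their median (adjusted p = 0.0839). Siah2, a ubiquitin ligase that degrades prolyl hydroxylases, was at 8.78 to 9.09 (median 8.93) and 7.38 to 8.78 (median 8.20). All 11 urethane arrays lay below every control, but only just: the lowest control was at 8.7784 and the highest urethane array at 8.7774. Over all genes tested 0.47% had groups that did not overlap. Siah2 fell by 0.68 (SE 0.17, limma adjusted p = 0.0308). Siah2 passed without control 36 (-0.71) and without urethane 33 (-0.73), and did not pass when control 6_13, 14, 33, 35 or 37 or urethane 8 was left out (adjusted p from 0.0513 to 0.0759). On the 2 scan days alone its adjusted p was 0.0568 and 0.167, and with the replicate block 0.354. Vhl and Egln2, of the oxygen-dependent degradation of the factors, differed by 0.10 and 0.04.

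Among 24 further targets tested, 2 were higher and 1 lower, with a median difference of 0.03. The share of all genes was again 2% higher and 1.14% lower. Ddit4, an inhibitor of mTOR signalling, went from a median of 6.48 (5.08 to 7.55) to 7.55 (7.09 to 8.19), a rise of 1.11 (SE 0.30, limma adjusted p = 0.0467). It was dim on the controls of scan day 1, with a mean of 5.58. Control 14, at 5.08, lay under the lowest control value of Adm and of Egln3 (5.27 each). The rise thus includes control values near background. Ddit4 passed in 13 of the 32 alternatives, and of the 17 arrays left out in turn it kept its call only without control 36 (1.32), control 37 or urethane 3, 7 or 36, with 1.05 (adjusted p = 0.0664) without urethane 33 and an adjusted p of up to 0.129 without control 14. Tfrc, the transferrin receptor, went from 8.66 (7.74 to 9.22) to 9.60 (8.93 to 10.40), a rise of 0.95 (SE 0.23, limma adjusted p = 0.0257). The difference was 0.99 without control 36 and 0.92 without urethane 33. Tfrc passed in 26 of the 32 alternatives and did not pass without control 6_13, 14 or 33 (adjusted p from 0.0575 to 0.0815). It also failed with the mean over kept probe sets, no variance trend and array weights (adjusted p from 0.0534 to 0.0633). For Ddit4 and Tfrc, the 11 urethane values exceeded the mean of the controls. Flt1, a receptor for vascular endothelial growth factor, went from 10.45 (10.24 to 10.74) to 9.43 (8.21 to 10.36), and fell by 0.996 (SE 0.23, limma adjusted p = 0.0198). It was -1.03 without control 36 and -0.87 without urethane 33. Flt1 passed in 25 of the 32 alternatives. It did not pass without control 33 or 35 (adjusted p = 0.0524 and 0.0637) or on scan day 1 alone (-0.50, adjusted p = 0.179). Nor did it pass with arrays centred on their median (adjusted p = 0.0615) or no variance trend (adjusted p = 0.0562). With the mean over kept probe sets its adjusted p was 0.101, and with RNA quality ratios as covariates 0.102.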

How the data were processed

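Total RNA of lavage cells was hybridised to 17 arrays, 1 sample to an array. The authors deposited a linear intensity for each probe set, made with MAS5 (version not given) per the submitters' processing notes. Scanner files gave scan date, chip lot and fluidics station, and the month of the scan date defined the scan day. The members and lists were chosen with earlier results of these data known.

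Each value was increased by 17.1 (the 20th percentile signal of the median array) and put on the log2 scale, which understates the change of dim genes. Probe sets had to exceed the array's 40th percentile on 6 or more arrays. Genes were named from the platform annotation, with Ero1l matched by its gene ID, and the kept probe set of highest mean with 1 symbol stood for a gene. Control probe sets with 1 symbol were included. Signals of different probe sets are not compared as levels. The main test was limma 3.58.1 under R 4.3.3, using lmFit and eBayes with trend, two-sided, with p-values adjusted by Benjamini-Hochberg over all 13391 genes or all 24479 probe sets and a threshold of 0.05. In simulated data for this comparison, over 13391 genes, 33% of genes changed 1.5-fold and 52% changed 2-fold were recovered. Of the 90 called, 5.56% were unchanged. In the order of probe sets, the genes changed 1.5-fold all preceded those changed 2-fold. The 2 shares therefore rest on different parts of the array, cannot be compared with each other, and do not give the recovery for the members.

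Members were described in depth if they passed, passed with scan day as a block, had a probe set that passed, or had 1 of the 3 largest differences of their list. Of other lists every gene that passed was named. The 6 pathway lists hold 95 genes. Replicate numbers shared by the groups were checked and do not pair the samples: within scan day the correlations were -0.007, -0.157 and -0.171. The alternatives changed scaling, pseudocount, filter, choice of probe set, variance model, weights, covariates, blocks and arrays used. Promoters are from RefSeq (GRCm38.p6). Plots used Python 3.11.15 and matplotlib 3.10.9.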

Additional observations from a re-analysis of the deposited data

Results flagged for a closer look

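The 6 control arrays were checked for an outlying array in each of the 28 tested members and in the Gapdh and Actb 3′ to 5′ ratios. In 2 of these 30 checks 1 array stood far from the others, and chance gives about 1 in 20. The 11 urethane arrays were not checked in this way. Hk3 had a log2 signal of 7.04 on control 6_13, while the other controls lay between 7.54 and 7.80, and the difference between groups was -0.07 without it. Pfkl had a log2 signal of 9.44 on control 33, while the other controls lay between 9.77 and 9.96, and the difference was 0.18 without it.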

How the results depend on the processing

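The results were recomputed under 32 other settings, 17 of them leaving out 1 array and 1 (scan day and fluidics station as blocks) chosen after the data were seen. Ndrg1 passed in all 32, Hk2 in all but the replicate block (adjusted p = 0.0596) and Aldoc in all but scan day 1 alone. Of the other 25 tested members, 15 passed in none of the settings that could be run, and the sign of 12 of these changed in at least 1. The count of genes past the threshold, 421, was 250 with no variance trend, 1038 blocked by scan day, 973 for scan day 1 alone, 636 for scan day 2 alone, 3025 with the replicate block, 1078 with scan day and fluidics station as blocks, and 218 to 634 leaving out 1 array. It was 220 without control 33, 218 without control 35 and 634 without control 36. For probe sets, 481 became 263, 1437, 1165, 791, 4742 and 1370 in the same settings, and 230 to 772 leaving out 1 array. The 3 members called became 2 for scan day 1 alone, 7 blocked by scan day, 5 for scan day 2 alone, 10 with the replicate block, 7 with both blocks and 3 to 4 leaving out 1 array. The 11 genes with an interaction became 0 with quantile normalization, with arrays centred on their median and with a pseudocount of 100, 2 with the mean over probe sets, 3 with no variance trend, 323 with array weights, and 0 to 663 leaving out 1 array (663 without control 37). The median difference of the transporters was -0.070 with RNA quality ratios as covariates, and with the replicate block those of the enzymes and other targets were -0.18 and -0.16. The replicate block leaves few degrees of freedom and the numbers do not pair the samples. The cause of these changes was not tested. Dim members (Adm, Egln3, Vegfa) are limited by signal near background.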

Other observations

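In 4 lists of neighbouring metabolic routes no gene passed the test. Of 12 further glycolysis genes tested, 10 pentose phosphate genes, 13 genes of pyruvate entry into mitochondria and 10 of gluconeogenesis and glycogen, 0 passed in limma, also when blocked by scan day, and 1, 0, 1 and 1 had an unadjusted p under 0.05, where 3.14% of all genes passed, 7.75% in the blocked fit, and 14.7% had an unadjusted p under 0.05. The median log2 differences of the 4 lists were -0.13, -0.01, 0.01 and 0.16. Transketolase (Tkt) differed by 0.07 and transaldolase (Taldo1) by -0.12. The mitochondrial pyruvate carrier subunit Mpc1 differed by 0.22 and pyruvate carboxylase (Pcx) by -0.41, and Fbp1, an enzyme of gluconeogenesis, by 0.45.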
